A study of Mus musculus with 24 samples.

Results

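The genes described here are 52 cell cycle genes measured by RNA-Seq in *Trex1*-/- mice that received SN-011 or PBS, in their heart, stomach, muscle and tongue tissue. They were chosen by name, as genes whose products act in DNA replication (15 genes) or in mitosis (37 genes), and were found by the Ensembl identifier that carries each symbol in GENCODE M21, among 54532 genes in the files. No expression value was used as a filter, though earlier results of these data were known when the genes were chosen. *Trex1*-/- mice, on a C57BL/6J background in the study's methods, lack a cytosolic DNA exonuclease and develop inflammation that runs through the cGAS-STING pathway, and SN-011 is a STING antagonist. All 8 groups carry the same knockout, and each holds 3 samples of 1 tissue under 1 treatment, 24 samples in all. The labels give the treated mice SN-011 at 5 mg/kg 3 times a week for a period of 4 weeks and describe the controls as untreated, whereas the study's methods give a higher dose, daily, over a shorter course in mice of about a month of age, with a PBS-based vehicle. Wild-type mice were not analysed here, so no value below shows what the knockout itself does to these genes.

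A dividing cell makes these transcripts in waves. In G1 and S phase, E2F factors drive genes that license and copy the DNA. The MCM helicase (*Mcm2* to *Mcm7*) opens the duplex, *Cdc6* loads it, *Cdc45* and *Gins2* complete the active helicase, *Pcna* clamps the polymerase, and *Rrm1*, *Rrm2* and *Tyms* supply nucleotides. In G2 and mitosis a later set of genes follows, and many of their promoters carry a cell cycle homology region (CHR). The set includes the mitotic kinase *Cdk1* with its cyclins and the kinases *Plk1*, *Aurka* and *Aurkb*. It also includes the parts of the kinetochore, the spindle and the cytokinetic ring. Heart and skeletal muscle hold few dividing cells in the adult, whereas gastric glands and the basal layer of the tongue epithelium renew throughout life.

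The promoters of 5 members are shown because they carry the sequence elements that set the classes apart. Each window covers the 160 bases before the RefSeq start on GRCm38.p6, read along the gene's strand. Capitals mark the letters TTTCCCGC, TTTGGCGC, TTTCGCGC or TTTGCCGC (forms of the E2F site), TTTGAA (the core of the CHR) and CCAAT (the NF-Y box), each searched on both strands, and overlapping matches run together.
*Mcm5*, chr8:75109349-75109508, plus strand: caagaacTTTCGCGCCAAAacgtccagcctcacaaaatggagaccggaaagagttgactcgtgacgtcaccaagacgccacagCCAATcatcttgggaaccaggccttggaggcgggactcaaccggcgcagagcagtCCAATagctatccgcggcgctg
*Mcm6*, chr1:128359706-128359865, minus strand: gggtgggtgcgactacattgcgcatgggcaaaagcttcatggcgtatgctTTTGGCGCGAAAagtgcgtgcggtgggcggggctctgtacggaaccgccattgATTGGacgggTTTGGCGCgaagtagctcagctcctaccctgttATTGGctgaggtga
*Cdk1*, chr10:69352913-69353072, minus strand: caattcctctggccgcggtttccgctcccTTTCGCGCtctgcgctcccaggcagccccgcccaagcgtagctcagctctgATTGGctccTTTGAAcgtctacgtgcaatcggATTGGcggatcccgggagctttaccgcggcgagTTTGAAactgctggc
*Top2a*, chr11:99024190-99024349, minus strand: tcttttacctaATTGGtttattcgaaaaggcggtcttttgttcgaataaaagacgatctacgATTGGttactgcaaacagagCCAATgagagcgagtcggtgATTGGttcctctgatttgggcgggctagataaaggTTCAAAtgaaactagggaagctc
*Mki67*, chr7:135716380-135716539, minus strand: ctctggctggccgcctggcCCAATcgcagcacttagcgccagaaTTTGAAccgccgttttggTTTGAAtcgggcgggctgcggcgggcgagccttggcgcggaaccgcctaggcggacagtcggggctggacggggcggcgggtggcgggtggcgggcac
The *Mcm5* window held 2 E2F matches that overlap, the *Mcm6* window 3, and neither held TTTGAA. The *Cdk1* window held 1 E2F match and 2 of TTTGAA, the *Mki67* window 2 of TTTGAA and the *Top2a* window 1, the last on the other strand.

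RefSeq held a promoter, 250 bases before the start and 50 after it, for 13 of the 15 replication genes and 31 of the 37 mitosis genes. An E2F form stood in the promoter of 6 of 13 replication genes (*Mcm3*, *Mcm5*, *Mcm6*, *Mcm7*, *Cdc6* and *Uhrf1*) and of 2 of 31 mitosis genes (*Ncapg* and *Cdk1*), against 2.61% of all 27025 genes with a promoter in the table. TTTGAA stood in 2 of 13 replication promoters and in 25 of 31 mitosis promoters, against 20.2% of all. *Ccnb1*, *Bub1*, *Cenpe* and *Nuf2* were among the mitosis genes without it. CCAAT stood in 10 of 13 and 26 of 31, against 41.1% of all. These matches describe the letters in the window and are not evidence of binding.

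Samples held from 14253416 to 18443329 counts, so that 3 counts, taken as the smallest abundance that can be shown, stood for 0.130 to 0.336 CPM (counts relative to library size, after TMM scaling), a limit that covers counting error only. In PBS replicate 1 of every tissue the sex-linked transcripts were those of a female, and in the other samples those of a male. In muscle SN-011 replicate 2, 11546 genes were detected, compared with 19798 or more in each other sample, and 38 of the 52 members had 0 counts in it. Gastric gland genes (8 genes, such as *Gkn1* and *Pgc*) summed to 2741 CPM in heart PBS replicate 2, 1224 in muscle PBS replicate 2, and 2749 and 2144 in tongue PBS replicates 2 and 3, above each of the SN-011 samples of those tissues, which reached at most 48.0, 69.6 and 43.7 CPM. No sample held a count on *Trex1* (0 in each of 24), a gene that shares exons with *Atrip*, so its count does not check the genotype. In bulk tissue, fewer cells of a type cannot be told apart from less RNA per cell.

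In PBS mice, the cell cycle genes were lowest in muscle, intermediate in heart and highest in stomach and tongue. Per kilobase of exon, the median replication gene stood at 1.65 CPM in muscle, 3.75 in heart, 4.08 in stomach and 4.85 in tongue. For the mitosis genes the medians were 0.58, 2.06, 4.18 and 4.79 CPM per kb. The spread between tissues was thus wider for the mitosis genes. Their median lay well below that of the replication genes in muscle and heart, and close to it in stomach and tongue. *Pcna*, the sliding clamp, which also serves in DNA repair, had the highest level per kilobase of all members in heart (19.8 CPM per kb) and in muscle (14.2). *Ube2c*, a ubiquitin-conjugating enzyme of the anaphase-promoting complex, led in stomach with 34.1 CPM per kb, and *Cdc20*, which activates that complex, led in tongue with 31.7. *Ube2c* overlaps the troponin gene *Tnnc2* on the opposite strand, and the sources used here do not state whether counting used strand.

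**Figure D1:**
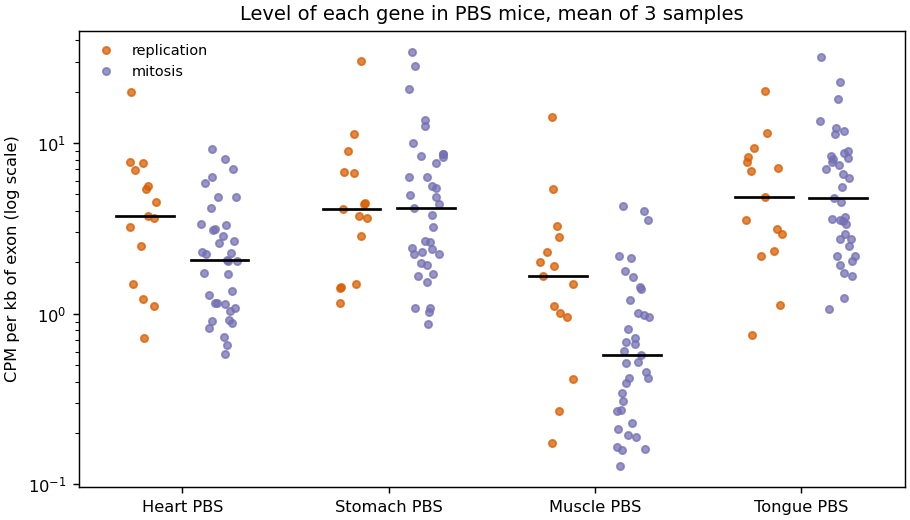
Level of each of the 52 genes in PBS mice, as CPM per kilobase of exon on a log axis, with each point the mean of 3 samples and each black line the median of 15 replication or 37 mitosis genes. The mitosis medians run from 0.58 in muscle to 4.79 in tongue, a wider span than the replication medians, which run from 1.65 to 4.85.

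The differences between tissues were tested in a joint edgeR quasi-likelihood fit of 19731 genes with Benjamini-Hochberg adjustment at a threshold of 0.05, and a gene is called higher or lower only past it. Stomach was higher than muscle for 45 of the 52 members, against 27.3% of all genes. Tongue was higher than muscle for 44 members (20% of all genes), and heart was higher than muscle for 38 (17.0%). Stomach exceeded heart for 18 members, 16 of them mitosis genes, against 21.6% of all genes. Tongue exceeded heart for 16 members, 15 of them mitosis genes, against 15.5%. Stomach was higher than tongue for 0 members (16.9% of all genes) and lower for 2 members, *Cdc20* and *Tpx2* (20%), of which 0 remained with the replicate number as a block. No member was called lower in stomach, tongue or heart than in muscle, or lower in stomach or tongue than in heart. The shares of all genes called lower in these pairs are not given here, so this has no background. With DESeq2, 24 members were called higher and 1 lower in stomach than in heart.

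The gene with the largest difference from muscle was *Ccnb1*, cyclin B1, the partner of *Cdk1*. *Ccnb1* stood at 32.4, 27.8 and 43.6 CPM in the PBS tongues and at 1.53, 0.749 and 1.61 CPM in the PBS muscles. Its log2 difference was 4.72 ± 0.53 (SE; edgeR adjusted p = 5.85e-07), and it was also the largest for stomach against muscle (4.13) and heart against muscle (2.71). At the other end, *Rrm1*, the large subunit of ribonucleotide reductase, was as abundant in PBS muscle (33.6, 37.4 and 37.1 CPM) as in PBS tongue (35.1, 36.2 and 45.8 CPM), with a log2 difference of 0.11 ± 0.33 and an adjusted p of 0.819. Between stomach and heart the largest difference was that of *Ube2c*, with 105, 97 and 64.6 CPM in the PBS stomachs and 15.1, 14.7 and 15.3 CPM in the PBS hearts (2.56 ± 0.58, adjusted p = 0.0014). Between tongue and heart it was that of *Cdc20*, with 59.1, 41.5 and 77.2 CPM in the PBS tongues and 17.3, 10.8 and 11.1 CPM in the PBS hearts (2.18 ± 0.51, adjusted p = 0.00261). *Cdc20* was lower in stomach than in tongue as well, by −1.34 ± 0.49 (adjusted p = 0.0376). *E2f1* was the gene with the lowest difference of stomach from heart, at −1.38 ± 0.56 (SE; adjusted p = 0.0538). *Aurka*, the spindle pole kinase, was lowest in the difference of heart from muscle (−0.68 ± 0.59, adjusted p = 0.401), with 5.37, 13.6 and 13.7 CPM in the 3 PBS muscles. The lowest difference of stomach from tongue was that of *Prc1*, a spindle midzone protein, at −1.5 ± 0.72 (SE; adjusted p = 0.113).

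In the heart, 52 of 52 members had a negative log2 fold change of SN-011 against PBS, against 8304 of 16151 genes tested. Past the threshold, 5 members fell after SN-011 and 0 rose, whereas 0.328% of all genes fell. At an unadjusted p under 0.05, 41 members were lower (11.6% of all genes), and 40 members did not overlap, all SN-011 hearts being lower (13.4% of all genes). The median log2 fold change was −0.69 over the members and −0.01 over all genes. Replication and mitosis genes had similar medians, −0.74 and −0.66.

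The 5 genes that fell in the heart were *Top2a*, *Mcm4*, *Mcm2*, *Rrm1* and *Smc2*. *Top2a* (chromosome 11, 98992943 to 99024189, minus strand), the topoisomerase that untangles chromosomes, stood at 41.2, 30.9 and 40.2 CPM under PBS and 19.5, 18.4 and 17.1 CPM under SN-011. Its log2 fold change was −1.02 ± 0.14 (SE; edgeR adjusted p = 0.0275). *Mcm2* (chromosome 6, 88883474 to 88898780, minus strand) stood at 18.5, 24 and 24.8 CPM under PBS and at 12, 12.1 and 12 CPM under SN-011 (−0.89 ± 0.15, adjusted p = 0.0402). In both genes the groups did not overlap, and the SN-011 samples lay closer together than the PBS samples.

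*Mcm4* (chromosome 16, 15623897 to 15637400, minus strand) stood at 14.2, 13.9 and 20.2 CPM under PBS and 7.12, 7.76 and 7.41 CPM under SN-011 (log2 fold change −1.11 ± 0.19, adjusted p = 0.0383). *Rrm1* (chromosome 7, 102441695 to 102469771, plus strand) stood at 27.5, 24.3 and 30.4 CPM against 15.7, 17.2 and 16.1 CPM (−0.74 ± 0.13, adjusted p = 0.0444). *Smc2* (chromosome 4, 52439243 to 52488260, plus strand), a condensin subunit, stood at 13, 9.71 and 11.1 CPM against 5.99, 5.59 and 5.39 CPM (−0.99 ± 0.18, adjusted p = 0.0499). Again no SN-011 heart reached the lowest PBS heart.

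Among members that did not pass, *Gins2* had the lowest fold change in the heart, with 4.96, 3.75 and 4.90 CPM under PBS and 1.26, 1.71 and 2.02 CPM under SN-011 (−1.44 ± 0.29, adjusted p = 0.0564). *Mcm5* stood at 21.5, 19.3 and 26.4 CPM against 10.1, 10.5 and 14.2 CPM (−0.94 ± 0.18, adjusted p = 0.0544). For *Cdk1* the levels were 18.9, 10.9 and 15.9 CPM under PBS and 7.78, 6.94 and 8.70 CPM under SN-011, without overlap (−0.95 ± 0.22, adjusted p = 0.0735). *Mki67*, the usual histological marker of proliferation, was at 58.1, 35.4 and 52.3 CPM against 27.6, 31.9 and 35.4 CPM (−0.61 ± 0.18, adjusted p = 0.114), so that the highest SN-011 heart stood at the level of the lowest PBS heart. *Cenpa*, the histone H3 variant of centromeres, had the highest fold change, −0.01 ± 0.14 (adjusted p = 0.985), and its groups overlapped, with 41.9, 53 and 45.9 CPM under PBS and 52.3, 48.4 and 38.7 CPM under SN-011.

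The remaining genes of the fixed set lay between these in the heart. *Pcna* stood at 45.4, 43.7 and 53.7 CPM under PBS and 35.6, 31.6 and 33.9 CPM under SN-011 (−0.49 ± 0.12, adjusted p = 0.0838). *Rrm2*, the small reductase subunit, was at 12.7, 14.5 and 17.6 CPM against 9.88, 8.53 and 9.10 CPM (−0.70 ± 0.17, adjusted p = 0.0858). *Ccnb1* was at 8.55, 8.05 and 9.07 CPM against 6.23, 3.82 and 3.82 CPM (−0.88 ± 0.24, adjusted p = 0.0978). These 3 genes did not overlap between the groups. *Birc5*, the survivin subunit of the chromosomal passenger complex, likewise separated the groups, with 12.3, 9.52 and 10.1 CPM against 8.08, 7.35 and 7.36 CPM (−0.48 ± 0.17, adjusted p = 0.16). *Plk1* was at 6.83, 16.0 and 9.03 CPM against 4.79, 3.76 and 5.28 CPM (−1.19 ± 0.32, adjusted p = 0.0947). Its highest PBS value came from replicate 2, the heart with 2741 CPM of gastric gland RNA, and in PBS stomach *Plk1* reached 96.7 CPM. *Birc5*, at 3.12 CPM per kb in PBS heart and 13.7 in PBS stomach, was lowest of the PBS hearts in that replicate (9.52 CPM). The part of stomach RNA in these values was not tested. *E2f1* overlapped between the groups (11.1, 12.3 and 12.1 CPM against 6.29, 7.88 and 12.3 CPM; −0.41 ± 0.24, adjusted p = 0.352).

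The count of 5 depended on the samples. It was 3 without PBS replicate 1, 15 without PBS replicate 2, and 0 without PBS replicate 3 or without any 1 of the 3 SN-011 samples, with medians over the members of −0.80 to −0.59. The share of all genes called lower moved with it, from 0.328% to 2.46% without PBS replicate 2 and to 0.0607% without PBS replicate 3. Markers of other cell types also differed between the heart groups, some lower and some higher under SN-011. Their median fold changes were −0.14 over 8 myeloid and −0.06 over 5 endothelial markers. The 6 fibroblast markers were all lower, 1 past the threshold (*Lum*, −0.90, adjusted p = 0.0481), and summed to 2178 to 3194 CPM under PBS and 1496 to 1687 CPM under SN-011. The 6 cardiomyocyte markers were all higher, summing to 25775 to 36131 CPM under PBS and 35414 to 42939 CPM under SN-011. The 11 lymphocyte markers were all lower (median −0.57, none past the threshold), but their sums overlapped, at 131 to 500 CPM under PBS and 135 to 256 CPM under SN-011. The 5 red cell markers were all higher (median 1.06), as they were in each of the other tissues. The part of these in the fall of the cell cycle genes was not tested.

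In the stomach, 49 of 52 members had a negative fold change, but none passed the threshold, as was so of all genes (0%). At an unadjusted p under 0.05, 26 members were lower and 0 higher (11.4% of all genes were lower), and 26 members did not overlap, SN-011 being lower (16.1% of all genes). The median over the members was −0.90, with −0.70 for replication and −1.01 for mitosis genes, and 0.00 over all genes. The 4 genes of the cyclin and CDK group had fold changes of −1.74 to −1.22 and no overlap in any of them.

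*Cdk1* stood at 36.1, 51.6 and 37.1 CPM in the PBS stomachs and at 10.7, 25.0 and 16.8 CPM under SN-011 (−1.22 ± 0.33, adjusted p = 0.0951). *Ccnb1* was at 15.5, 31.1 and 22.1 CPM against 3.71, 10.3 and 6.51 CPM (−1.72 ± 0.43, adjusted p = 0.0817). The lowest fold change was that of *Hmmr*, a spindle assembly factor, with 8.44, 13.6 and 14.3 CPM against 1.43, 4.87 and 2.40 CPM (−2.04 ± 0.50, adjusted p = 0.0795). In each of these 3 genes SN-011 replicate 1 was the lowest sample and SN-011 replicate 2 the highest of its group.

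*Birc5* stood at 51.4, 46.3 and 42.3 CPM in the PBS stomachs and 9.12, 23.6 and 14.8 CPM under SN-011 (−1.53 ± 0.34, adjusted p = 0.0727). *Mki67* was at 84.2, 106 and 112 CPM against 41.0, 74.1 and 55.4 CPM (−0.80 ± 0.29, adjusted p = 0.144). *Cenpa* was at 44.3, 52.3 and 49.8 CPM against 17.3, 28.0 and 25.9 CPM (−1.01 ± 0.25, adjusted p = 0.0796). None of these 3 overlapped. *Top2a* did overlap, with 46.0, 92.1 and 94.6 CPM against 26.4, 49.2 and 37.3 CPM (−1.02 ± 0.36, adjusted p = 0.138).

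Among the replication genes of the stomach, *Mcm2* stood at 28.9, 30.6 and 18.5 CPM under PBS and 10.03, 18.3 and 12.7 CPM under SN-011, so that the groups almost met (−0.89 ± 0.31, adjusted p = 0.134). *Mcm5* was at 15.5, 14.9 and 18.5 CPM against 6.80, 13.6 and 7.66 CPM (−0.78 ± 0.33, adjusted p = 0.197). *Pcna* was at 69.1, 86.3 and 61.8 CPM against 29.7, 54.3 and 35.6 CPM (−0.83 ± 0.28, adjusted p = 0.133). *Rrm2* overlapped, with 17.9, 18.2 and 19.5 CPM against 5.56, 20 and 8.01 CPM (−0.70 ± 0.45, adjusted p = 0.36). *E2f1*, *Plk1* and *Smc4* had fold changes of −0.01, 0.01 and 0.32, and all 3 overlapped. *Smc4*, a condensin subunit with the highest fold change of any member in the stomach, stood at 24.1, 45 and 66.3 CPM under PBS and 69.6, 42.7 and 54.6 CPM under SN-011 (0.32 ± 0.39, adjusted p = 0.632).

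Cell composition differed between the stomach groups in the same samples. The 6 squamous epithelium markers, which belong to the forestomach, summed to 95.2 to 220 CPM under PBS and to 1251, 391 and 761 CPM in SN-011 replicates 1, 2 and 3, with no overlap in any of the 6. The 8 gastric gland markers summed to 132216, 65531 and 38623 CPM under PBS and 18582, 97643 and 38863 CPM under SN-011. All 6 fibroblast and all 5 endothelial markers had positive fold changes in the stomach (medians 0.73 and 0.39), opposite to most members. The SN-011 stomach with the most squamous and the least glandular RNA was also the one with the lowest cell cycle genes. Among the PBS stomachs, replicate 1 had the lowest mean log2 CPM over the members (3.78, against 4.48 and 4.44 in replicates 2 and 3). That sample, the female, held the most glandular RNA of the PBS stomachs. It also held the most squamous RNA, 220 CPM, against 178 and 95.2 CPM in replicates 2 and 3. The part of cell composition in the fold changes was not tested.

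In the muscle, 46 members passed the filter on low counts (*Gins2*, *Ccnb1*, *Bub1*, *Ttk*, *Hmmr* and *Ect2* did not), 37 of them with a negative fold change. None passed the threshold, against 0.0141% of all genes. At an unadjusted p under 0.05, 1 member was lower (5.80% of all genes), and 23 did not overlap, SN-011 being lower (21.6% of all genes). The median was −1.04 over the members and −0.08 over all genes. Without SN-011 replicate 2, 51 members were tested, the median was −0.67, 18 members were lower and 1 higher at an unadjusted p under 0.05, against 16.3% and 14.6% of all genes. In that fit 0 members passed the threshold, whereas 1103 genes in all did.

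*Cdk1* stood at 3.49, 2.53 and 4.07 CPM in the PBS muscles and 1.28, 0 and 0.930 CPM under SN-011 (−2.14 ± 1.14, adjusted p = 0.452). *Mki67* was at 21.2, 9.18 and 11.9 CPM against 6.82, 0 and 9.11 CPM, and *Top2a* at 9.79, 6.37 and 9.66 CPM against 4.58, 0 and 4.83 CPM. *Birc5* was at 3.32, 3.93 and 5 CPM against 1.28, 0.112 and 1.95 CPM, and *E2f1* at 5.96, 4.4 and 3.73 CPM against 2.77, 0 and 3.16 CPM, both without overlap. *Plk1* and *Mcm5* overlapped, with fold changes of −1.27 and −0.90, and *Ccnb1*, too low to be tested, was at 0.651 CPM or less in the SN-011 muscles. The lowest fold change was that of the kinetochore protein *Cenpf*, with 2.47, 1.5 and 1.95 CPM against 0.213, 0 and 0.558 CPM (−2.82 ± 1.15, adjusted p = 0.332). In *Cdk1*, *Mki67*, *Top2a* and *Cenpf*, replicates 1 and 3 were below the PBS muscles as well, by less than replicate 2. The 0.112 CPM of *Birc5* in replicate 2 and the 0.213 CPM of *Cenpf* in replicate 1 lay under the limit of 3 counts. That limit was 0.336 and 0.32 CPM in those samples, and the values of 0 lay under it too.

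A few members ran the other way in the same library. *Cenpe*, the kinetochore motor, had the highest fold change in the muscle, 1.13 ± 0.90, from 2.73, 1.69 and 2.54 CPM under PBS and 1.39, 9.63 and 2.32 CPM under SN-011. *Cenpa* (5.44, 15 and 5.48 CPM under SN-011) and *Mcm4* (4.90, 11.2 and 4.74 CPM) were likewise highest in SN-011 replicate 2. *Mcm2*, a gene of moderate abundance in muscle, kept a count in every sample and did not overlap, with 11.3, 15.5 and 15.1 CPM against 9.06, 7.17 and 10.04 CPM (−0.59 ± 0.27, adjusted p = 0.387). *Rrm2* was the 1 member of the 46 tested with every SN-011 muscle above every PBS muscle, whereas 11.5% of all genes tested were so. It stood at 4, 4.31 and 5.42 CPM against 5.76, 6.94 and 6.6 CPM (0.60 ± 0.42, adjusted p = 0.568). *Pcna* overlapped, at 33.6, 34.1 and 34.4 CPM against 41.3, 21.8 and 37.3 CPM. All 5 endothelial and all 6 fibroblast markers were lower in the SN-011 muscles. Endothelial sums were 374 to 459 CPM under PBS and 221 to 323 CPM under SN-011, and fibroblast sums 2103 to 3088 and 882 to 1526 CPM. Medians were 0.28 over 8 myeloid and −0.11 over 10 tested lymphocyte markers. The part of these cell types was not tested.

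**Figure D2:**
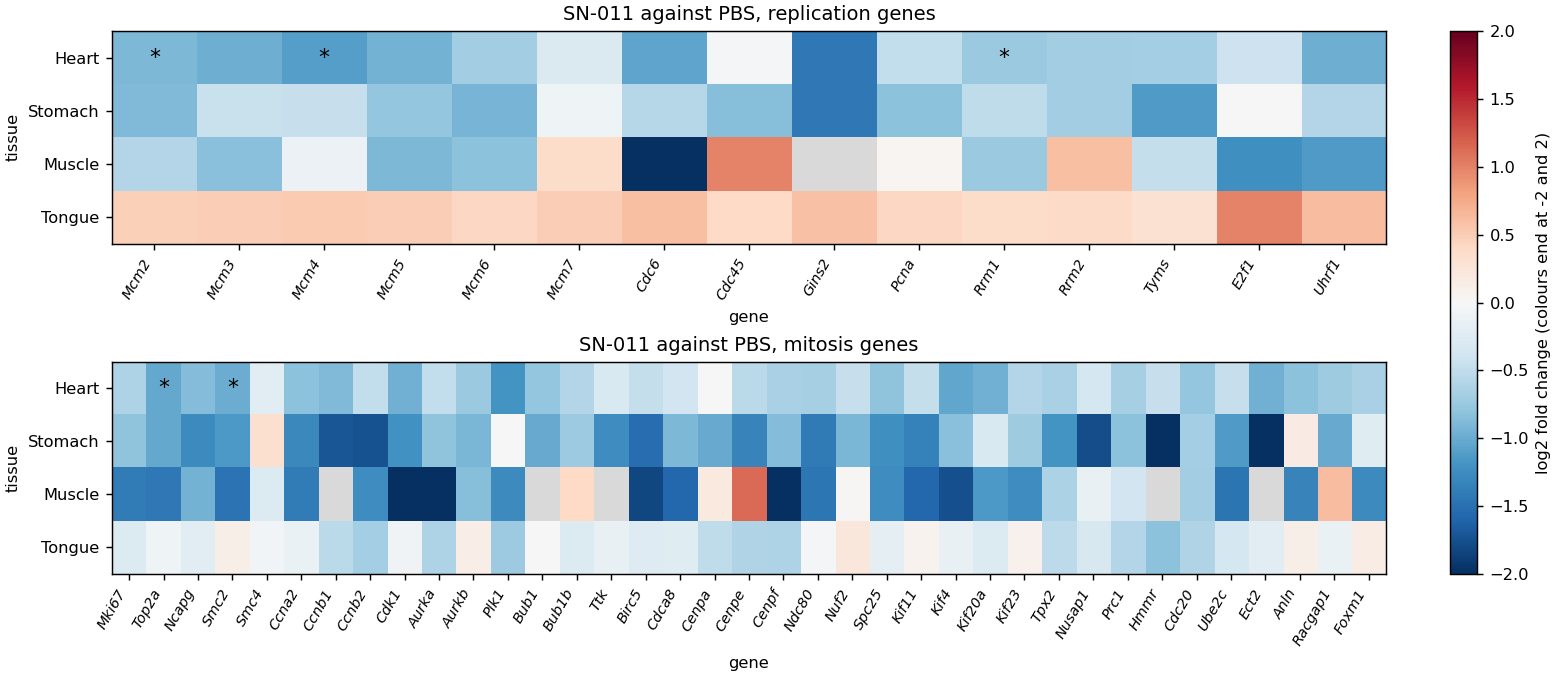
Log2 fold change of SN-011 against PBS for each of the 15 replication genes (top) and 37 mitosis genes (bottom) in the 4 tissues, red for higher and blue for lower under SN-011, with grey for genes not tested and a star for an adjusted p under 0.05. The heart values are blue throughout, with 5 stars, and the tongue values are red in 15 of 15 replication genes and in 8 of 37 mitosis genes.

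In the tongue, the 2 classes took different directions. All 15 replication genes had a positive fold change (0.30 to 0.99, median 0.49), whereas 29 of the 37 mitosis genes had a negative one (−0.81 to 0.22, median −0.22). Over all genes tested, 8038 of 16587 were positive and the median was −0.01. No member passed the threshold, nor did any other gene (0%), so these are directions and sizes of single genes that each failed the correction. At an unadjusted p under 0.05, 11 members were higher, all of them replication genes (5.17% of all genes), and 5 were lower, all mitosis genes (7.33%). In 9 members, again replication genes, every SN-011 tongue lay above every PBS tongue (9.79% of all genes), and in 2, *Ccnb2* and *Cenpe*, every one lay below (7.92%).

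The largest fold change was that of *E2f1* (chromosome 2, 154559407 to 154569892, minus strand), the transcription factor of the replication genes. It stood at 11.2, 7.08 and 11.4 CPM in the PBS tongues and at 21.4, 19.5 and 18.4 CPM under SN-011 (0.99 ± 0.22, edgeR adjusted p = 0.263), so the lowest SN-011 sample was well above the highest PBS sample. *Uhrf1*, which carries DNA methylation to the new strand, was at 40.8, 32.0 and 46.4 CPM against 63.8, 59.3 and 59.3 CPM (0.61 ± 0.16, adjusted p = 0.282). Both passed the threshold when PBS replicate 1 was left out (*E2f1* 1.10, adjusted p = 0.0197; *Uhrf1* 0.64, adjusted p = 0.049), as did *Ccnb2* on the lower side (−0.74, adjusted p = 0.0443). In that fit 2 of the 52 members were called higher and 1 lower, against 4.41% and 8.04% of all genes. It left out the only female tongue and kept PBS replicates 2 and 3, with 2749 and 2144 CPM of gastric gland RNA. Their squamous sums, 32567 and 46829 CPM, lay above those of every SN-011 tongue (15432 to 21386 CPM). The part of these in the calls was not tested.

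The 6 MCM genes differed little among themselves in the tongue, with fold changes of 0.42 to 0.52, and 5 of them did not overlap. *Mcm2* stood at 18.8, 17.8 and 24.6 CPM under PBS and 28.7, 29.0 and 27.9 CPM under SN-011 (0.48 ± 0.16, adjusted p = 0.342). *Mcm5* was at 25.6, 27.0 and 33.1 CPM against 42.3, 35.3 and 42.5 CPM (0.49 ± 0.15, adjusted p = 0.327). *Mcm4* was at 16.3, 15.7 and 20.2 CPM against 27.0, 23.3 and 24.9 CPM (0.52 ± 0.15, adjusted p = 0.297). The PBS sample nearest to the SN-011 samples was replicate 3 in each of these.

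Among the other replication genes of the tongue, *Pcna*, *Rrm1* and *Rrm2* overlapped. *Pcna* was at 40.9, 46.1 and 58.9 CPM against 71.6, 54.5 and 69.2 CPM (0.42 ± 0.18, adjusted p = 0.399). *Rrm1* was at 35.1, 36.2 and 45.8 CPM against 54.1, 45.4 and 51.4 CPM (0.36 ± 0.15, adjusted p = 0.395). *Rrm2* was at 17.8, 17.8 and 33.1 CPM against 32.4, 31.5 and 26.0 CPM, its highest value being that of PBS replicate 3. *Gins2*, the gene lowest in the heart, stood at 4.94, 4.43 and 4.39 CPM in the PBS tongues and 5.15, 7.52 and 7.93 CPM under SN-011 (0.58 ± 0.25, adjusted p = 0.402), without overlap.

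The mitosis genes of the tongue mostly overlapped. *Top2a* stood at 80.5, 94.0 and 129 CPM under PBS and 107, 101 and 79.0 CPM under SN-011 (−0.08 ± 0.20), and *Mki67* at 111, 105 and 138 CPM against 118, 97.7 and 76.6 CPM (−0.28 ± 0.19). *Cdk1* was at 30.8, 22.4 and 38.9 CPM against 37.5, 30.7 and 20.3 CPM (−0.06 ± 0.28). SN-011 replicate 3 was the lowest SN-011 sample in all 3. *Ccnb1* was at 32.4, 27.8 and 43.6 CPM against 29.1, 27.4 and 14.9 CPM (−0.55 ± 0.28, adjusted p = 0.453). *Plk1* was at 19.9, 23.4 and 37.1 CPM against 20.5, 17.2 and 11 CPM (−0.73 ± 0.30, adjusted p = 0.393). *Ccnb2*, cyclin B2, separated the groups, at 25.2, 24.6 and 33.6 CPM against 19.7, 18.1 and 14.3 CPM (−0.68 ± 0.19, adjusted p = 0.284). *Cenpa* (57.5, 39.9 and 60.4 CPM against 46.1, 38.7 and 26.8 CPM) and *Birc5* (45.1, 37.7 and 54.4 CPM against 49.1, 31.9 and 33.8 CPM) overlapped. *Hmmr* had the lowest fold change, −0.81 ± 0.39 (adjusted p = 0.43), with 9.97, 9.63 and 15.8 CPM against 10.5, 5.87 and 3.81 CPM.

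**Figure D3:**
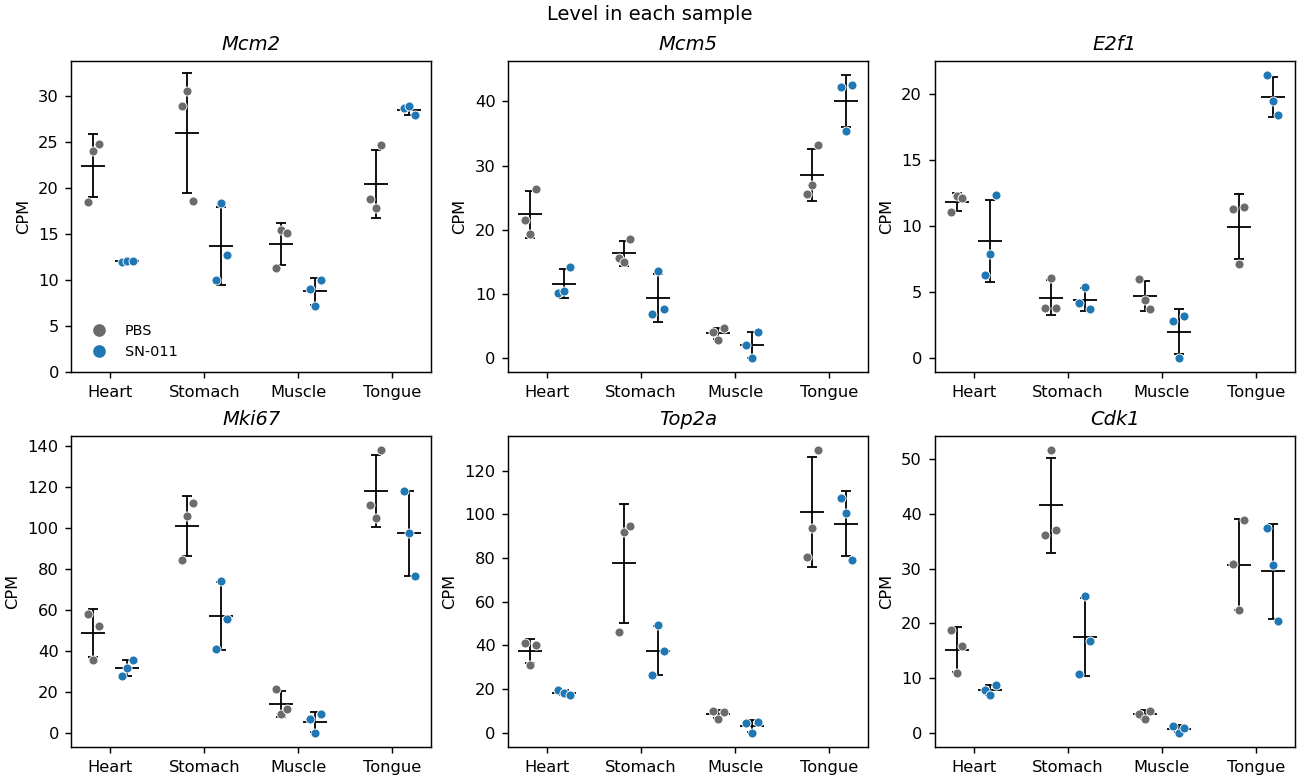
CPM of 3 replication genes (top: *Mcm2*, *Mcm5*, *E2f1*) and 3 mitosis genes (bottom: *Mki67*, *Top2a*, *Cdk1*) in each of the 24 samples, grey for PBS and blue for SN-011, with the mean and SD of 3 samples. The SN-011 tongues lie above all PBS tongues for the replication genes and overlap with them for the mitosis genes, while in the heart *Mcm2*, *Mcm5*, *Top2a* and *Cdk1* are lower in all SN-011 samples.

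The split held for the replication genes in every other fit of the tongue data. All 15 remained positive under 13 alternatives, 6 of which left out 1 sample each, while the number of positive mitosis genes varied from 4 to 14 of 37. The 6 squamous epithelium markers summed to 12180 to 46829 CPM in the PBS tongues and 15432 to 21386 CPM under SN-011, with overlap. Their fold changes were 0.44 for *Krt5* and 0.62 for *Krt15*, and −0.05 for *Krt14*, −0.13 for *Trp63*, −1.13 for *Krt13* and −1.28 for *Krt4*, none past the threshold. All 8 gastric gland genes were lower under SN-011, as were all 6 fibroblast markers (median −0.36). The part of these in the difference between the classes was not tested.

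As a summary for each sample, the mean log2 CPM was taken over the replication genes and over the mitosis genes. In the heart, the replication mean was 3.94 ± 0.18 under PBS and 3.18 ± 0.15 under SN-011 (SD, n = 3), and the mitosis mean 3.37 ± 0.22 and 2.73 ± 0.05. In the tongue, the replication mean was 4.25 ± 0.22 and 4.76 ± 0.05, and the mitosis mean 4.61 ± 0.31 and 4.37 ± 0.29. The groups did not overlap for either mean in the heart and overlapped for both in the stomach, in the muscle they separated for both, and in the tongue for the replication mean alone. These means describe the chosen genes and were given no test.

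The replication mean minus the mitosis mean was −0.33, −0.30 and −0.46 in the PBS tongues and 0.17, 0.27 and 0.75 in the SN-011 tongues. It differed by 0.76 between the groups, more than the spread within either (SD 0.09 and 0.31). In the heart the same difference was 0.26, 0.71 and 0.73 under PBS and 0.31, 0.47 and 0.59 under SN-011, a change of −0.11 with overlap. In the stomach it changed by 0.21 with overlap. In the muscle it changed by 0.60 without overlap, and by 0.42 without SN-011 replicate 2.

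**Figure D4:**
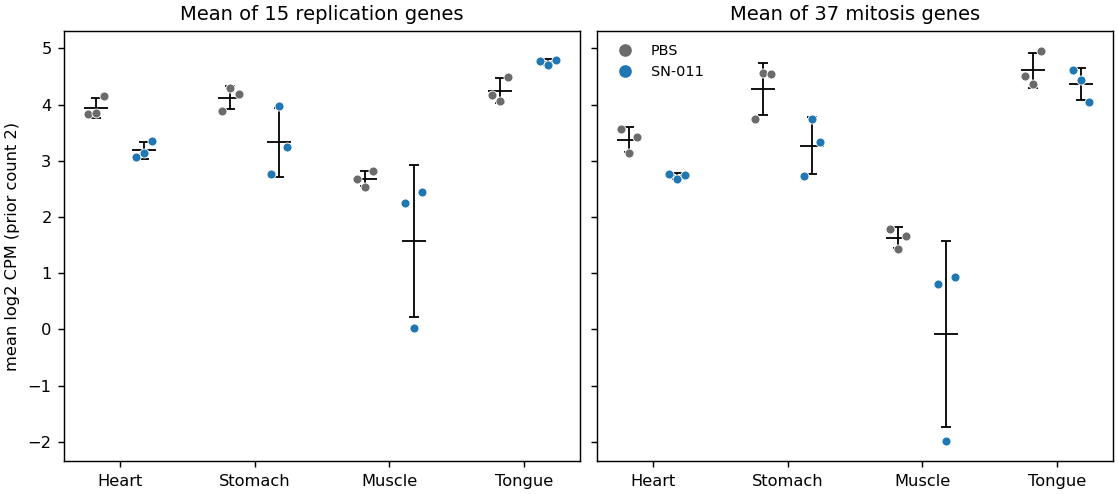
Mean log2 CPM of the 15 replication genes (left) and the 37 mitosis genes (right) in each sample, grey for PBS and blue for SN-011, with the mean and SD of 3 samples. In the tongue the replication mean is 4.25 under PBS and 4.76 under SN-011 without overlap, while the mitosis means (4.61 and 4.37) overlap, and muscle SN-011 replicate 2 lies far below all other samples in both panels.

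Whether the effect of SN-011 differed between tissues was tested gene by gene as an interaction in the joint fit. That fit takes the spread of a gene from all 8 groups, muscle SN-011 replicate 2 included. For SN-011 against PBS in the heart it called 0 members (0.00507% of all genes), whereas the heart fitted alone gave 5 (0.848%). For tongue minus heart, 15 of 15 replication genes were positive (median 1.38) and 32 of 37 mitosis genes (median 0.48), yet no member passed the threshold, and neither did any gene (0%). *Mcm2* came closest by unadjusted p, with a difference of 1.38 ± 0.34 (SE; edgeR adjusted p = 1). For stomach minus tongue, 0 members passed (0.821% of all genes), with *Mcm2* at −1.41 ± 0.34 and an adjusted p of 0.051. It passed, with *Pcna*, under DESeq2 size factors (−1.35, adjusted p = 0.0413) and with at least 10 counts in every sample (−1.30, adjusted p = 0.0197). Both genes also passed in the DESeq2 test (*Mcm2* −1.35, adjusted p = 0.00182) and when stomach PBS replicate 3 or SN-011 replicate 2 was left out. The shares of all genes called in these fits are not given here. For stomach minus muscle 1 member passed, *Cenpe* (6.95% of all genes), at −2.29 ± 0.67 with an adjusted p of 0.0433. Without muscle SN-011 replicate 2, in which *Cenpe* was at 9.63 CPM, the difference was −1.06 (adjusted p = 0.167). No member passed for stomach minus heart (2.01% of all genes), tongue minus muscle (0.0355%) or heart minus muscle (0.00507%).

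Side by side, 22 members were negative in heart and stomach and positive in the tongue, comprising all 15 replication genes and 7 mitosis genes. Among them, *Mcm2*, *Mcm4*, *Mcm5*, *Mcm6*, *Cdc6*, *Gins2* and *Uhrf1* lay below PBS without overlap in the heart and above PBS without overlap in the tongue. Over all genes tested, 13.4% lay below PBS without overlap in the heart and 9.79% above it in the tongue. The share of all genes with both was not counted, nor was that for the other patterns across tissues. These counts of members therefore have no background. Of the members tested in all 4 tissues, 19 were negative in each, and all 19 were mitosis genes. No member separated the groups in the same direction in all 4 tissues.

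Sorted by promoter letters, the members with TTTGAA had a median fold change of −0.20 in the tongue, 6 of 27 being positive, and those without it 0.39, with 13 of 17 positive. For the E2F forms, 6 of 8 members with a match were positive in the tongue (median 0.49) and 13 of 36 without one (median −0.17). In the heart all were negative, with medians of −0.66 and −0.69 with and without TTTGAA. Since the elements divide along the same line as the classes, this does not separate an effect of sequence from that of function.

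Genes of the cell cycle outside the 52 were counted as a further description. Of 36 other replication genes, such as *Mcm10*, *Cdt1* and *Fen1*, 34 were negative in the heart (median −0.51) and 35 were positive in the tongue (median 0.51), where 18 were higher at an unadjusted p under 0.05 (5.17% of all genes) and 21 lay above PBS without overlap (9.79%). Of 46 other mitosis genes, such as *Nek2*, *Kif2c* and *Cep55*, 45 were negative in the heart (median −0.63), and 16 were positive and 30 negative in the tongue (median −0.10). In the stomach, 28 of the 35 tested replication genes and 43 of 46 mitosis genes were negative, with medians of −0.52 and −0.76. In the muscle the medians were −0.35 over 28 genes and −0.73 over 28 genes. None of these passed the threshold in any tissue.

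The G1 cyclins and their kinases, 8 genes that act before S phase, were negative in 6 of 8 in the heart and positive in 7 of 8 in the tongue. One of them passed the threshold, *Ccnd1*, cyclin D1, in the heart, which fell from 69.3, 53.1 and 64.1 CPM to 35.4, 27.9 and 33.5 CPM (log2 fold change −0.94 ± 0.14, adjusted p = 0.0281). Of 10 CDK inhibitors and pocket proteins, which restrain the cycle, none passed in any tissue, and their medians lay between −0.04 and 0.06.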

How the data were processed

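RNA-Seq libraries of heart, stomach, muscle and tongue from *Trex1*-/- mice were deposited as 1 table of counts per sample. Per the study's methods, the authors trimmed reads with Trimmomatic, aligned them with HISAT2 and counted uniquely mapped pairs per gene with featureCounts, whereas the submitters' processing notes name HISAT2, HTSeq and mm10. Strand use and the annotation release are not given in the sources used here. From these deposited counts, edgeR 4.0.16 (R 4.3.3) was run with TMM scaling, filterByExpr (minimum count 10, minimum total 15), a quasi-likelihood test and Benjamini-Hochberg adjustment over all genes tested at a threshold of 0.05, within each tissue for SN-011 against PBS and jointly over 24 samples for tissues and interactions. Levels are CPM on the joint TMM scale, and sample means of log2 CPM used a prior count of 2. DESeq2 1.42.0, the edgeR exact test, other scalings and filters, a replicate block and leaving out each sample were alternatives. Fits were tested on simulated data, where small fold changes were seldom recovered in stomach, muscle and the interactions. The simulated samples did not differ in composition or sex as the real ones did. The criterion for passing these runs was replaced after the first one had failed.

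Nothing in the labels says that samples came from separate mice within a group, so p-values measure the spread between these samples. The genes described by name were 12 fixed members and, in each comparison, those past the threshold and the highest and lowest fold change. Genes named beyond these were chosen after their values were seen. The members, lists and tests were chosen with earlier results of these data known.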

Additional observations from a re-analysis of the deposited data

Results flagged for a closer look

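The effect of SN-011 on *Cenpe* differed between stomach and muscle by −2.29 on the log2 scale (edgeR quasi-likelihood interaction test, Benjamini-Hochberg adjusted p = 0.0433). Without muscle SN-011 replicate 2 it was −1.06 (adjusted p = 0.167), and over all alternatives the adjusted p ran from 0.0096 to 0.167.

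The mean log2 CPM of the 15 replication genes moved in opposite directions in tongue and heart, every SN-011 tongue lying above every PBS tongue and every SN-011 heart below every PBS heart. The changes differed by 1.27. Tongue and muscle likewise moved apart, by 1.62, of which muscle SN-011 replicate 2 is a part. Neither difference was tested.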

How the results depend on the processing

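The number of members past the threshold depended on the method. In the heart (5) it was 8 with library size alone, 25 without a filter, 19 with the exact test, 25 with DESeq2, 0 in the joint fit and 0 to 15 when 1 sample was left out, and the median was −0.83 with library size alone. Over all genes tested in the heart, 0.848% were called in the reported fit. The share was 1.54% with library size alone, 6.23% without a filter, 5.65% with the exact test and 8.43% with DESeq2. In the stomach (0) it was 14, 15, 17 and 11 without a filter, with the exact test, with DESeq2 and in the joint fit, where 4.98%, 10.6%, 14% and 13.9% of all genes were called, against 0 in the reported fit. In the muscle (0) it was 4 in the joint fit, where 2.4% of all genes were called. In the tongue (0) it was 1 with the exact test, 1 with DESeq2 and 0 to 3 with 1 sample left out. Of all genes in the tongue, 1.48% were called with the exact test and 2.52% with DESeq2. Without PBS replicate 1, the fit with 3 members, 12.5% of all genes were called. The causes were not tested.

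Requiring at least 10 counts in every sample left 13 members to test. Between PBS tissues this gave 4 for stomach against heart, 11 for stomach against muscle, 4 for tongue against heart, 12 for tongue against muscle and 11 for heart against muscle. DESeq2 gave 6 for stomach against tongue and 28 for tongue against heart. Leaving out 1 sample gave 8 to 18 for stomach against heart, 0 to 3 for stomach against tongue, 7 to 16 for tongue against heart and 25 to 46 for heart against muscle. For the interactions, DESeq2 gave 2 for stomach minus muscle, 3 for stomach minus tongue, 1 for tongue minus heart and 1 for tongue minus muscle. DESeq2 size factors gave 2 for stomach minus tongue, as did the minimum of 10 counts. With 1 sample left out, the counts were 0 to 4 for stomach minus muscle and 0 to 3 for stomach minus tongue. The shares of all genes called in these alternative fits are not given here, so the counts of members have no background.

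The shared replicate numbers did not pair PBS with SN-011 samples: correlations of same-numbered samples ran from −0.328 to −0.0941 in the tongue and did not all pass 0.1 in any tissue. PBS samples with the same number in different tissues correlated more (mean 0.259, lowest −0.135) than those with other numbers (mean −0.125), and number 1 was the female sample in each tissue. The labels do not say that they share a mouse. With the replicate block, 6 members passed in the heart (1.5% of all genes) and 2 in the stomach (1.06%). None passed for stomach minus muscle or for stomach against tongue. The fold change with the block was 0.0103 for *E2f1* in the stomach and −0.0385 for *Cenpa* in the muscle.

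The muscle change of the replication minus the mitosis mean was 1.06 with the smaller prior count. Of 1001 fits of single named genes, 877 kept direction and side of the threshold and 32 changed sign. With library size alone, fold changes were 0.148 for *E2f1* in the stomach, −0.0786 for *Cenpa* and −0.177 for *Pcna* in the muscle, and 0.00486, 0.0157 and 0.0231 for *Top2a*, *Cdk1* and *Smc4* in the tongue. In the joint fit *Plk1* was −0.0103 in the stomach and *Pcna* −0.0234 in the muscle. With 1 sample left out, ranges that crossed 0 were, in the heart, −0.102 to 0.0975 (*Cenpa*). In the stomach they were −0.187 to 0.254 (*E2f1*), −0.843 to 0.0714 (*Mcm4*), −0.397 to 0.475 (*Plk1*) and −0.0185 to 0.722 (*Smc4*). In the muscle they were −0.617 to 0.482 (*Cenpa*), −0.309 to 1.57 (*Cenpe*), −0.777 to 0.147 (*Mcm4*) and −0.0963 to 0.214 (*Pcna*). In the tongue they were −0.267 to 0.14 (*Cdk1*), −0.0297 to 0.364 (*Smc2*), −0.181 to 0.043 (*Smc4*) and −0.216 to 0.127 (*Top2a*).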
